A study of Homo sapiens with 12 samples.

Results

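The transcripts described are 7 long non-coding RNAs that carry microRNAs, MIR22HG, MIR17HG, MIR31HG, MIR210HG, MIR155HG, MIR100HG and MIR99AHG. They were taken by name from a table of 58830 entries of normalized counts. A normalized count is the number of reads on a gene divided by a size factor of its library. Testing was limited to the 20456 genes that reached a normalized count of 10 in 3 or more of the 12 libraries, and 6 of the 7 were among them. MIR155HG was too low to be tested.

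A microRNA host gene is transcribed as a long precursor from which the nuclear enzyme Drosha cuts hairpins and Dicer then releases mature microRNAs. A mature microRNA guides Argonaute proteins to messenger RNAs that pair with its seed, the bases near its 5′ end. TGFβ drives epithelial cells such as A549 towards a mesenchymal state, the epithelial-mesenchymal transition, in which the repressor SNAI1 takes part. RNA-seq of this kind reads the long host transcript, whereas a mature microRNA is too short to be read by it.

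Libraries of 4 groups were sequenced from A549, an established human lung adenocarcinoma epithelial line. They were the line labelled Sm22mut, with the genotype miR22/SNAI1 target site KO, given TGFβ at 10 ng/mL; the same line untreated; wild type A549 given TGFβ at 10 ng/mL; and wild type A549 untreated. All were sampled at day 5, with 3 libraries each that the labels call biological repeats, and the p-values rest on how far such repeats differ. The mutant is called the edited line below. It is 1 derivative, so effects of the edit and of making the line cannot be told apart.

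Libraries held 84210775 to 111141708 reads on genes. The 8 epithelial markers summed to 406800 to 469700 normalized counts in edited libraries with TGFβ, 556900 to 574600 in untreated edited libraries, 391300 to 508500 in wild type with TGFβ and 534800 to 557000 in untreated wild type. The 4 endothelial markers summed to 15.1 to 29.6 with TGFβ and 143 to 180.5 untreated in the edited line, and to 5.50 to 31.9 with TGFβ and 114 to 152.5 untreated in wild type. The 5 leukocyte markers summed to 46.3 to 61.4 with TGFβ and 109 to 138 untreated in the edited line, and to 46.2 to 76.9 with TGFβ and 77.8 to 102 untreated in wild type. Of 2 tested endothelial markers 2 fell with TGFβ in the edited line and 1 in wild type, and of 3 tested leukocyte markers 2 fell in each line. The 6 fibroblast markers summed to 1695 to 2016 with TGFβ and 213 to 281 untreated in the edited line, and to 1200 to 1399 with TGFβ and 145 to 187 untreated in wild type. Of 5 tested fibroblast markers, 4 rose in the edited line and 5 in wild type. Of 7 tested epithelial markers, 5 fell and 1 rose with TGFβ in each line. All these lists moved with TGFβ, as the responses below did, and their part in them was not tested. In such bulk RNA, a change in the share of cells that make a transcript and a change in RNA per cell cannot be told apart. A gene count also does not show whether a target site is altered, so it does not check the genotype label.

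The mature microRNAs are printed first because they tie each host to its targets and show which hosts carry the same seed. All 16 mature forms that were looked up had an entry in RefSeq (GRCh38.p14), and they held 15 distinct sequences with 11 distinct seeds. Capitals mark the seed, bases 2 to 8 from the 5′ end. MIR22HG, MIR31HG, MIR210HG and MIR155HG each carry 1 microRNA, and their seeds occur in no other sequence printed here.
miR-22-3p: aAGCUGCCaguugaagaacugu
miR-31-5p: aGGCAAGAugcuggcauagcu
miR-210-3p: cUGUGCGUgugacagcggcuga
miR-155-5p: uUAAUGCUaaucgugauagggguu

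MIR17HG is the precursor of the polycistronic oncogenic cluster named after its first member. Its 6 microRNAs have 4 seeds, and the pairs that share one differ by C1U and C12U (miR-17 to miR-20a) and by U11C (miR-19a to miR-19b), counted from the 5′ end.
miR-17-5p: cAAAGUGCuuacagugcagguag
miR-20a-5p: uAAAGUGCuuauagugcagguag
miR-18a-5p: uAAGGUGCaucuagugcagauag
miR-19a-3p: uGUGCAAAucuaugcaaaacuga
miR-19b-3p: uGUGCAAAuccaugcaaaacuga
miR-92a-3p: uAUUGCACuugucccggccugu

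MIR100HG and MIR99AHG carry paralogous clusters, each with a miR-99 family member, a let-7 and miR-125b. These were the 3 seeds found on more than 1 host. Relative to the MIR100HG copy, the MIR99AHG copy differs by A16U in the miR-99 family member and by A19G in let-7, and miR-125b is identical over its 22 bases.
miR-100-5p: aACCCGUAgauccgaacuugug
miR-99a-5p: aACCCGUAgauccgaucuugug
let-7a-5p: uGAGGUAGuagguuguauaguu
let-7c-5p: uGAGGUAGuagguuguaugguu
miR-125b-5p: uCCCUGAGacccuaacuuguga

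The edit concerns the pairing of miR-22-3p with SNAI1. The 3′ untranslated region of SNAI1 (transcript ENST00000244050.2, GRCh38, plus strand) holds 2 matches to the miR-22-3p seed, in capitals, at chr20:49988269-49988293 and chr20:49988563-49988587. The labels do not say which of them was altered.
SNAI1 first match: tttctgtggagggagGGCAGCTggc
SNAI1 second match: gatgccccgagcccaGGCAGCTatt

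TGFβ raised 4 of the 6 tested hosts in both lines and lowered MIR99AHG in both, while MIR100HG fell in the edited line. In the edited line with TGFβ against the untreated edited line, 4 of 6 rose and 2 fell, where 62.8% of all 20456 tested genes passed in either direction, 32.1% upward and 30.7% downward. In wild type with TGFβ against untreated wild type, 4 of 6 rose and 1 fell, where 61.7% of all tested genes passed, 30.8% upward and 30.9% downward. The median log2 fold change of the 6 was 0.72 in the edited line, against 0.03 over all tested genes, and 1.02 in wild type, against 0.02. Since most genes passed in both lines, the number of hosts that passed in either direction singles out no property of them. The share of hosts that rose was above that of all tested genes. With 6 hosts, chosen with earlier results of these data known, that excess was not tested. Fold changes here are differences of log2(value + 1), which understate changes of low genes, and adjusted p-values come from limma with Benjamini-Hochberg adjustment over all tested genes.

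MIR22HG (ENSG00000186594.14, GRCh38 chr17:1711493-1717174, minus strand, a long intergenic non-coding RNA) has the miR-22 hairpin in an exon. Its normalized counts were 4675, 4965 and 4181 in edited libraries with TGFβ, against 2543, 2994 and 2768 in untreated edited libraries. In wild type they were 5024, 5010.0 and 5184 with TGFβ, against 2338, 2836 and 2423 untreated. Every treated library lay above every untreated one in both lines, and the 3 treated wild type libraries lay above the 3 treated edited ones. The fold was 1.66 in the edited line (log2 0.73 ± 0.08 SE, limma adjusted p = 1.02e-06) and 2.01 in wild type (1.01 ± 0.08, adjusted p = 2.54e-08). The edited line differed from wild type by less than the test could call with TGFβ (95% interval -0.32 to 0.04 on the log2 scale, adjusted p = 0.313) and without it (-0.05 to 0.31, adjusted p = 0.262). Libraries of both lines overlapped without TGFβ.

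MIR31HG (ENSG00000171889.3, GRCh38 chr9:21455642-21559669, minus strand), the host of miR-31 at the interferon cluster, rose by the largest fitted log2 fold change of the 6 in both lines. It read 278, 287 and 309 in edited libraries with TGFβ, against 85.6, 89.0 and 64.6 in untreated edited libraries. Wild type libraries had 188, 210.0 and 261 with TGFβ, against 62.8, 65.1 and 60.2 untreated. No treated library came near an untreated one, and the treated edited libraries all lay above the treated wild type ones. The fold was 3.65 in the edited line (log2 1.87 ± 0.18, limma adjusted p = 1.03e-07) and 3.43 in wild type (1.78 ± 0.18, adjusted p = 2.04e-07). The higher level of the treated edited line (log2 0.42 ± 0.18) did not pass after adjustment (limma adjusted p = 0.142).

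MIR210HG (ENSG00000247095.2, GRCh38 chr11:565660-568457, minus strand) hosts miR-210, a microRNA known as a target of the hypoxia-inducible factors. It read 249.5, 254 and 182 in edited libraries with TGFβ, against 148, 66.5 and 79.3 in untreated edited libraries. In wild type it read 182, 284 and 233 with TGFβ, against 109, 42.0 and 92.4 untreated. Its fitted changes had the largest standard error of the tested hosts, and treated and untreated libraries did not overlap in either line. The rise was 1.29 ± 0.33 in the edited line (log2, limma adjusted p = 0.00294) and 1.60 ± 0.33 in wild type (adjusted p = 0.000535). Edited and wild type libraries overlapped in each condition, and the log2 fold change of edited over wild type had intervals of -0.72 to 0.68 with TGFβ and -0.41 to 0.99 without it.

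MIR17HG (ENSG00000215417.12, GRCh38 chr13:91347820-91354579, plus strand) hosts the cluster of 6 microRNAs, which MYC is known to activate. It read 172, 300.4 and 187 in edited libraries with TGFβ, against 105, 159 and 133 in untreated edited libraries. Wild type libraries had 341, 347 and 331 with TGFβ, against 167, 157 and 171 untreated. Treated and untreated libraries did not overlap in either line, and replicate 2 of the treated edited line stood well above the other two. The rise was 0.70 ± 0.20 in the edited line (log2, limma adjusted p = 0.00517) and 1.04 ± 0.20 in wild type (adjusted p = 0.000229).

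MIR99AHG (ENSG00000215386.12, GRCh38 chr21:15928296-16645065, plus strand) spans the cluster of miR-99a, let-7c and a copy of miR-125b. It read 67.9, 63.5 and 61.4 in edited libraries with TGFβ, against 165, 163 and 147 in untreated edited libraries. In wild type it read 56.1, 44.1 and 58.8 with TGFβ, against 129.6, 126 and 92.4 untreated. Every treated library lay below every untreated one. It fell by 1.29 ± 0.20 on the log2 scale in the edited line (limma adjusted p = 2.85e-05) and by 1.11 ± 0.20 in wild type (adjusted p = 0.000134).

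MIR100HG (ENSG00000255248.8, GRCh38 chr11:122028327-122556721, minus strand) spans the paralogous cluster of miR-100, let-7a and the other copy of miR-125b. It read 137, 112 and 92.1 in edited libraries with TGFβ, against 188, 221 and 199 in untreated edited libraries. Wild type libraries had 112, 87.3 and 80.7 with TGFβ, against 104, 109.6 and 122 untreated. Treated and untreated libraries were apart in the edited line and overlapped in wild type. MIR100HG fell by 0.84 ± 0.19 on the log2 scale in the edited line (limma adjusted p = 0.000965). In wild type its change was -0.27 ± 0.19 (95% interval -0.67 to 0.13, adjusted p = 0.229).

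MIR155HG (ENSG00000234883.5, GRCh38 chr21:25561909-25575168, plus strand), the host of miR-155 and best known from activated lymphocytes, had 10 reads over the 12 libraries. It was at 0 in 7 libraries and had at most 3 reads in any one. A count of 0 allows up to 3 reads in a library, so no difference was detectable at this depth, and such limits cover counting error alone. The leukocyte marker CD3E was also listed at 0 in both edited groups and in treated wild type.

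**Figure D1:**
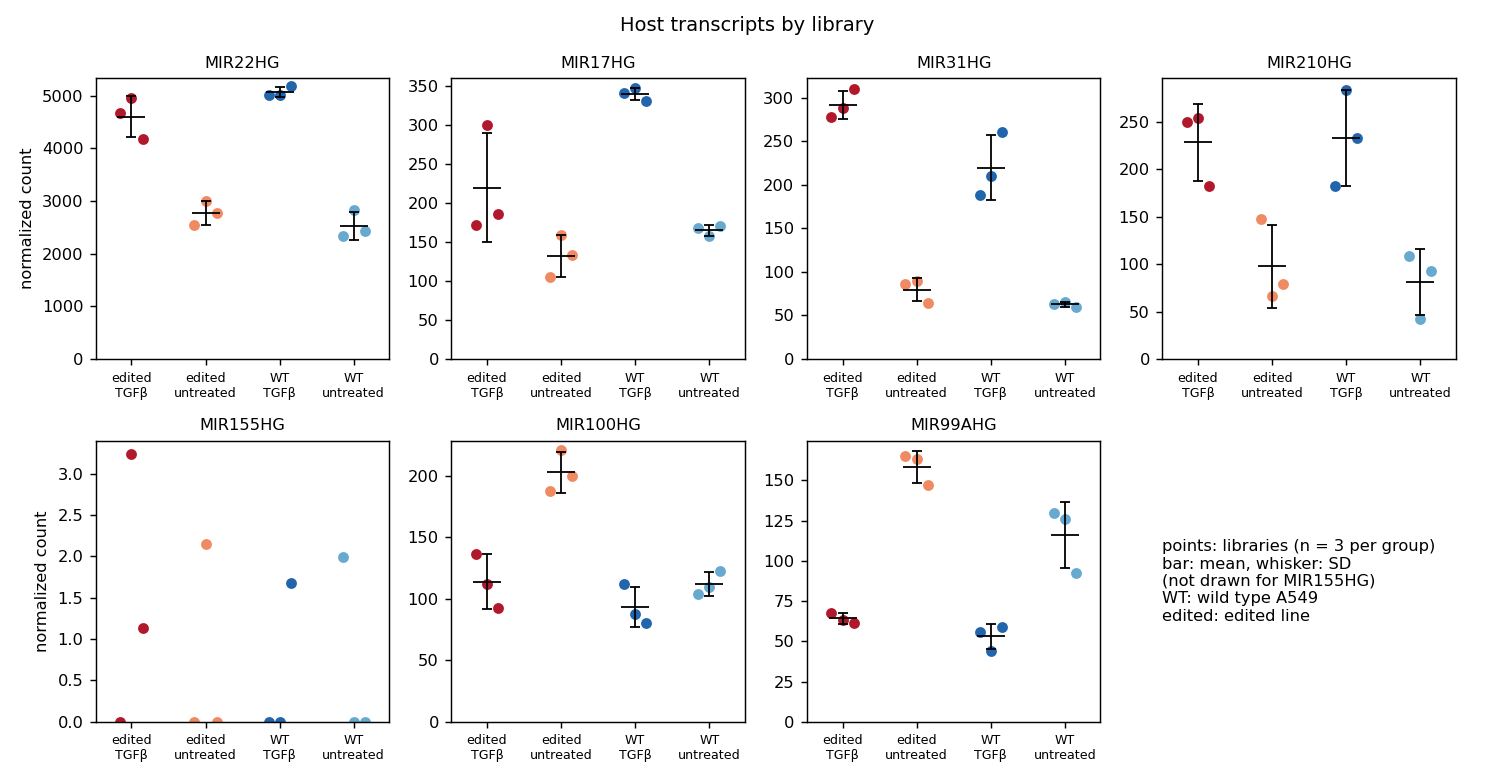
Normalized counts (vertical axes, linear, from 0) of the 7 host transcripts in each library, with points for libraries, bars for means and whiskers for SD (n = 3 per group, none drawn for MIR155HG). Treated libraries of MIR22HG, MIR17HG, MIR31HG and MIR210HG lie above the untreated ones of the same line, those of MIR99AHG lie below, and MIR155HG does not pass 3.23.

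The lines were compared next. Without TGFβ, MIR100HG was higher in the edited line, at 203 ± 16.8 normalized counts against 112 ± 9.61 in wild type (SD, n = 3 each), and no library of the groups overlapped. Its log2 fold change was 0.85 ± 0.19 (limma adjusted p = 0.00259). This was the 1 host of 6 that passed, upward, where 31.8% of all tested genes passed and 14.3% did so upward. Its paralogue MIR99AHG was at 158 ± 9.83 in the edited line and 116 ± 20.54 in wild type, also without overlap, and did not pass after adjustment (log2 0.46 ± 0.20, limma adjusted p = 0.0906). The intervals of MIR22HG, MIR31HG, MIR210HG and MIR17HG all included 0.

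With TGFβ, MIR17HG was lower in the edited line, at 219.8 ± 70.2 normalized counts against 339.7 ± 8.03 in wild type. Its log2 fold change was -0.67 ± 0.20 (limma adjusted p = 0.0356). It was the 1 host of 6 that passed, downward, where 11.7% of all tested genes passed, 7.38% upward and 4.32% downward. The call was lost in a fit of only the groups compared (adjusted p = 0.0962), and on leaving out any 1 of 4 libraries with TGFβ. These were wild type replicates 1 and 2 (0.0640 and 0.107) and edited replicates 1 and 3 (0.142 and 0.146). MIR100HG and MIR99AHG, at 114 ± 22.4 and 64.3 ± 3.28 in the edited line against 93.4 ± 16.6 and 53.0 ± 7.83 in wild type, did not pass (limma adjusted p = 0.394 and 0.408).

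A difference in the TGFβ response itself was then tested, as the response in the edited line minus that in wild type. None of the 6 hosts passed in limma, edgeR or DESeq2, where limma called 16.6% of all tested genes (10.6% upward and 6.02% downward), and 2 had an unadjusted p under 0.05 in each tool, a limit that 29.9% of all tested genes met in limma. In limma these were MIR22HG, whose rise was smaller in the edited line by a fitted -0.27 ± 0.12 (adjusted p = 0.132), and MIR100HG, at -0.57 ± 0.27 (adjusted p = 0.161). The MIR22HG value passed without replicate 2 of untreated wild type (-0.36, limma adjusted p = 0.0433). The fall of MIR100HG in the edited line is not shown to differ from its change in wild type.

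**Figure D2:**
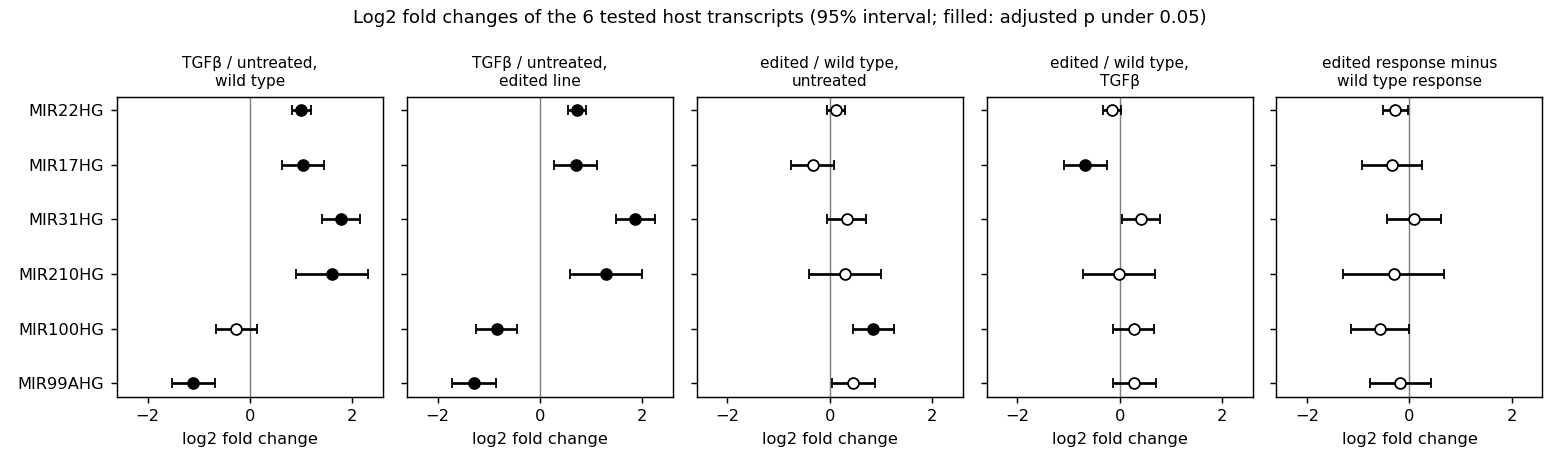
Log2 fold changes (horizontal axes) of the 6 tested hosts in the 5 comparisons, with 95% intervals and filled points for an adjusted p under 0.05. Filled points stand in the TGFβ panels for every host except MIR100HG in wild type, and once each for MIR100HG (untreated) and MIR17HG (TGFβ) between the lines.

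Levels of different hosts were compared per kilobase of exon in the GENCODE 29 annotation. In treated edited libraries MIR22HG averaged 1543 ± 133 normalized counts per kilobase and MIR31HG 391 ± 21.8, followed by MIR210HG at 98.5 ± 17.4 and MIR17HG at 62.9 ± 20.1, whose SD ranges met. MIR100HG and MIR99AHG stood at 5.86 ± 1.15 and 5.66 ± 0.289, and did not differ beyond their spread. The order in treated wild type was the same, at 1699 ± 32.4 for MIR22HG, 295 ± 49.96 for MIR31HG, 100.4 ± 21.8 for MIR210HG, 97.3 ± 2.30 for MIR17HG, 4.82 ± 0.855 for MIR100HG and 4.67 ± 0.689 for MIR99AHG, and again the SD ranges of the middle and of the last pair met. In untreated cells MIR22HG also led, at 927 ± 75.4 in the edited line and 848 ± 89.2 in wild type, and MIR99AHG lay above MIR100HG, at 13.95 ± 0.865 against 10.5 ± 0.868 in the edited line and 10.2 ± 1.81 against 5.77 ± 0.496 in wild type. MIR31HG was second there too, at 107 ± 17.8 in the edited line and 84.1 ± 3.31 in wild type. MIR210HG and MIR17HG followed, at 42.1 ± 18.8 and 37.9 ± 7.66 in the edited line and at 34.9 ± 14.97 and 47.3 ± 2.005 in wild type, with SD ranges that met in both. MIR155HG was under 1 in every group. The exons of MIR100HG and MIR99AHG add up to 19.4 and 11.4 kilobases over many isoforms, so their levels per kilobase depend on which isoforms the cells make.

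The hairpins themselves have rows in the table, 16 for these hosts. The 8 that lie in host exons, those of miR-22, miR-155 and the 6 of MIR17HG, had 0 reads in all 12 libraries, although MIR22HG, for example, was well covered. Of the 8 in introns, 5 had reads, 84 in all. The MIR31 row held 59 of these, with 38 reads in treated and 1 in untreated edited libraries, and 19 in treated and 1 in untreated wild type libraries. The row reached the filter value of 10 in 3 treated and 0 untreated libraries, so only treated libraries brought it into the fit, and its reads are given as a description with no test. The MIR210 row, also intronic, had 6 reads in treated and 2 in untreated edited libraries, and 4 in treated and 0 in untreated wild type libraries, and was not tested. How the counting assigned reads that overlap a hairpin and its host is not stated, and these rows are not used as a measure of mature microRNA.

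Genes that overlap or flank a host were read in the same libraries. Of 17 tested neighbours, the interferon gene IFNA1 reached the filter value in treated libraries alone. Of the other 16, 7 rose and 5 fell with TGFβ in the edited line (32.1% and 30.7% of all tested genes), and 7 rose and 6 fell in wild type (30.8% and 30.9%). WDR81, a WD-repeat protein of endosome traffic, lies on the opposite strand to MIR22HG, and the RefSeq starts of both are 313 bases apart. It read 1895, 1873 and 1778 in edited libraries with TGFβ, against 1137, 1186 and 1141 in untreated edited libraries. Wild type libraries had 1835, 1739 and 2046 with TGFβ, against 714, 812 and 846 untreated. Treated libraries of both lines overlapped, while untreated edited libraries all lay above untreated wild type. WDR81 rose by 0.68 ± 0.08 on the log2 scale in the edited line (limma adjusted p = 2.01e-06) and by 1.24 ± 0.08 in wild type (adjusted p = 1.47e-09), and was higher in the untreated edited line (0.55 ± 0.08, adjusted p = 0.000103). The difference in response was -0.57 ± 0.12 (limma adjusted p = 0.00333). TLCD2, 1055 bases from the other end of MIR22HG on its own strand, fell by 0.76 ± 0.12 in the edited line (limma adjusted p = 2.64e-05) and by 0.45 ± 0.12 in wild type (adjusted p = 0.00322).

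At the MIR31HG locus, IFNE, the gene of interferon epsilon, lies in an intron on the same strand. It read 182, 204 and 121 in edited libraries with TGFβ, against 36.1, 18.2 and 36.8 in untreated edited libraries. In wild type it read 188, 131 and 222 with TGFβ, against 21.9, 20.6 and 33.3 untreated. Treated and untreated libraries were apart in both lines, and the rise was 2.47 ± 0.31 in the edited line (log2, limma adjusted p = 3.58e-06) and 2.79 ± 0.31 in wild type (adjusted p = 9.53e-07). The pseudogene IFNWP19, which shares 303 exon bases with MIR31HG on the opposite strand, rose by 1.93 ± 0.27 in the edited line (limma adjusted p = 8.20e-06) and by 1.60 ± 0.27 in wild type (adjusted p = 6.63e-05). No source used here says whether strand was used in counting, so reads of IFNWP19 and MIR31HG over those bases cannot be told apart. Whatever the strand setting, reads of unspliced MIR31HG over IFNE would look like reads of IFNE, and their share was not tested.

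The flanking genes of the other loci are the nearest tested gene on each side of a host, and some lie far away. SORL1 is 394634 and UBASH3B 98954 bases from MIR100HG. Values are log2 fold changes with TGFβ, in the edited line and then in wild type. Beside MIR210HG, the Ras-association domain gene RASSF7 fell (-0.64 ± 0.08 and -0.63 ± 0.08) and the ubiquitin ligase gene PHRF1 rose (0.54 ± 0.05 and 0.56 ± 0.05). Beside MIR100HG, itself lower with TGFβ in the edited line, the phosphatase gene UBASH3B (1.09 ± 0.06 and 1.23 ± 0.06) and the sorting receptor gene SORL1 (1.07 ± 0.15 and 0.73 ± 0.15) rose. Beside MIR99AHG, the deubiquitinase gene USP25 fell (-0.76 ± 0.06 and -1.04 ± 0.06), as MIR99AHG did. Each of these 5 passed in both lines, with limma adjusted p of at most 0.000589. SERPINF2, a plasmin inhibitor gene beyond WDR81, rose (1.09 ± 0.17 and 0.66 ± 0.17), and MRPL39, a mitochondrial ribosomal protein gene beside MIR155HG, fell (-0.83 ± 0.08 and -0.74 ± 0.08), with limma adjusted p of at most 0.00264.

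The remaining neighbours were low or did not pass in both lines. The glypican gene GPC5, beside MIR17HG, was at 19.97 ± 17.1 in treated and 26.0 ± 7.83 in untreated edited libraries, and at 4.05 ± 4.44 in treated and 16.9 ± 10.2 in untreated wild type libraries. It passed in wild type (log2 -2.16 ± 0.79, limma adjusted p = 0.0271) and not in the edited line (adjusted p = 0.461). The wild type call was lost with a pseudocount of 10, no filter or only the groups compared (0.0514, 0.0519 and 0.0541), without replicate 2 of treated cells (0.159, log2 -1.26), and without replicate 1 or 2 of untreated cells (0.110 and 0.0719). LINC00410, 421223 bases from MIR17HG on its other side, and RPL13AP7, 199478 bases from MIR155HG, passed in neither line. Without replicate 2 of treated wild type, LINC00410 passed there (log2 1.99, limma adjusted p = 0.0455). RPL39P40, beyond MIR99AHG, averaged 2.16 in treated and 49.6 in untreated edited libraries, and 6.70 in treated and 48.1 in untreated wild type libraries. IFNA1 averaged 11.4 in treated and 0 in untreated edited libraries, and 15.5 in treated and 2.81 in untreated wild type libraries. MTAP, the nearest tested gene on the far side of MIR31HG, averaged under 10 in every group.

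**Figure D3:**
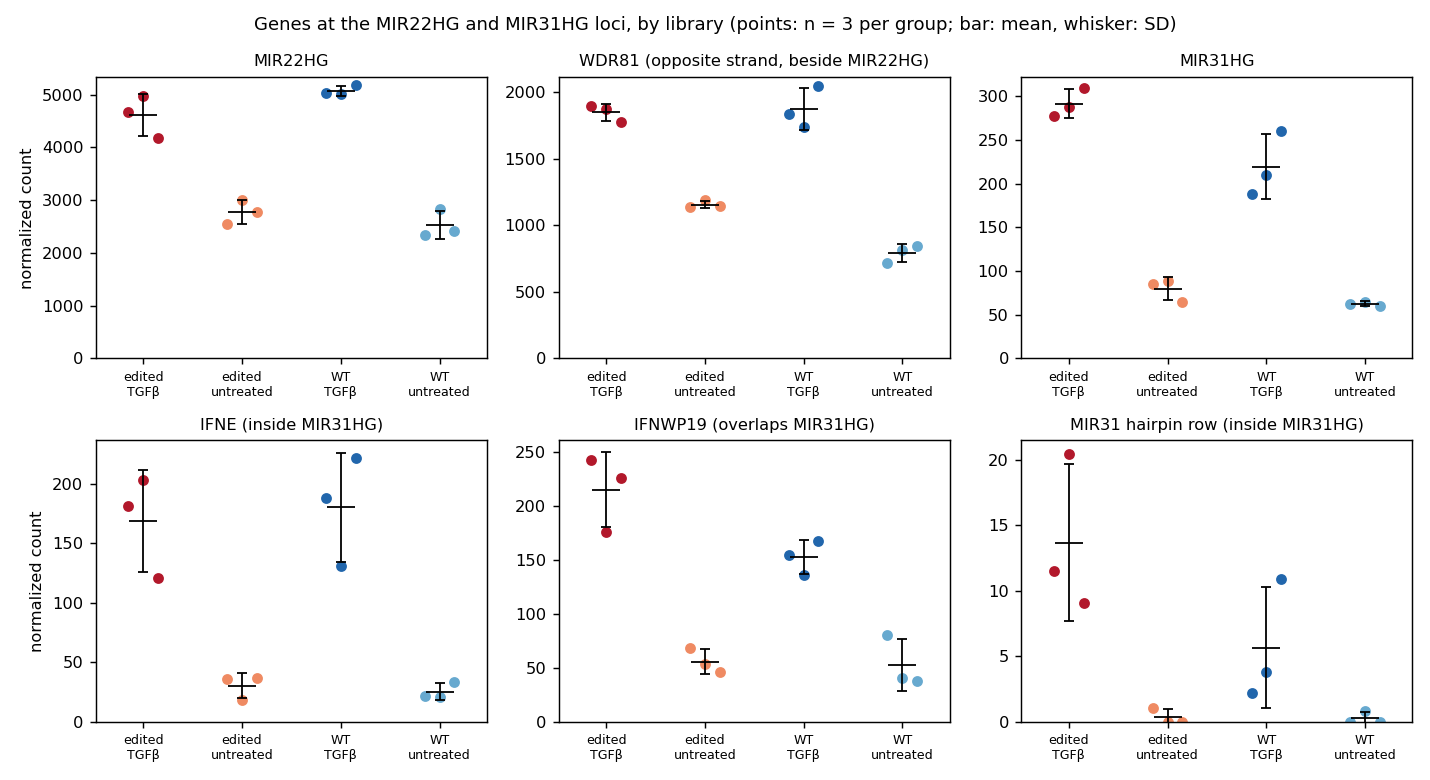
Normalized counts (vertical axes, linear, from 0) of MIR22HG and MIR31HG and of the tested genes that overlap them, by library. Points are libraries, bars are means and whiskers SD (n = 3 per group). All 6 panels have their treated libraries above the untreated ones of the same line. The MIR31 row reached the filter value in treated libraries alone. Flanking genes are not drawn, among them TLCD2, 1055 bases from MIR22HG, which fell in both lines. Untreated WDR81 is higher in the edited line (1155 ± 27.4) than in wild type (791 ± 68.9).

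The promoters of MIR22HG and MIR31HG are printed because these hosts were the highest per kilobase. Both rose in both lines, as MIR210HG and MIR17HG also did. Each window runs from 250 bases before to 50 bases after the RefSeq start (GRCh38.p14), in the direction of transcription. Capitals mark every match on either strand to 4 motifs, an E-box bound by SNAI1 and ZEB factors (CAGGTG or CACCTG), a SMAD element (CAGAC or GTCTG), an AP-1 site (TGANTCA) and the hypoxia-inducible factor core (ACGTG or CACGT, which overlap each other in CACGTG). Among 35116 windows of this length, 20.59% held the E-box, 45.26% the SMAD element, 7.709% the AP-1 site and 21.41% the hypoxia core. The MIR22HG window, chr17:1716161-1716460 on the minus strand, held 1 hypoxia core, and the MIR31HG window, chr9:21559749-21560048 on the minus strand, held 1 E-box.
MIR22HG promoter: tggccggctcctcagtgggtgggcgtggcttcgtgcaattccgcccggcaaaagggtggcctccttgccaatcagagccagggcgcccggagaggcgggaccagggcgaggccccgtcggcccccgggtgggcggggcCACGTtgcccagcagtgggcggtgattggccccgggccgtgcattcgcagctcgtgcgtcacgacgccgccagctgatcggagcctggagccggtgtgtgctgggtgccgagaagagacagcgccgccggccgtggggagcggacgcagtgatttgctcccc
MIR31HG promoter: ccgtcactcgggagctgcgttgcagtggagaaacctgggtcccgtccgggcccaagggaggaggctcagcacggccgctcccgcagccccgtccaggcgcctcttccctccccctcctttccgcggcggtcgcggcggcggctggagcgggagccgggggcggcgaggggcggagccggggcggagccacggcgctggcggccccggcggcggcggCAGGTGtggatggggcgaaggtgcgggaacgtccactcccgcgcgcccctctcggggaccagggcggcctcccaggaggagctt

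The MIR210HG window held an E-box, a SMAD element and a hypoxia core, the MIR155HG window an AP-1 site and a hypoxia core, and the MIR17HG window none of the 4 motifs. Of 6 MIR100HG windows, 3 held a SMAD element, 1 an E-box and 1 a hypoxia core, and of 6 MIR99AHG windows 4 held a SMAD element. The MIR99AHG windows chr21:16070238-16070537 and chr21:16070272-16070571 overlap and share a SMAD match, which was counted in both. These matches are letters in a window and were not tested for binding.

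The table also holds 44 other transcripts named as MIR hosts, of which 17 were tested. MIR2117HG reached the filter value in treated libraries alone. Of the other 16, 10 rose and 0 fell with TGFβ in the edited line, where 32.1% of all tested genes rose and 30.7% fell. In wild type 10 rose and 1 fell, where 30.8% of all tested genes rose and 30.9% fell. The median log2 fold change of the 16 was 0.85 in the edited line, against 0.03 over all tested genes, and 0.81 in wild type, against 0.02. MIR193BHG, the host of miR-193b, read 793, 866 and 867 in treated and 127, 88.0 and 111 in untreated edited libraries, and 527, 589.7 and 640.5 in treated and 119, 119 and 128 in untreated wild type libraries. It rose by 2.96 ± 0.14 in the edited line (log2, limma adjusted p = 1.81e-11) and by 2.25 ± 0.14 in wild type (adjusted p = 6.46e-10). MIR222HG, the host of miR-221 and miR-222, rose by 1.48 ± 0.19 in the edited line (limma adjusted p = 3.89e-06) and by 1.98 ± 0.19 in wild type (adjusted p = 1.47e-07). With TGFβ it was lower in the edited line, at 259.9 ± 24.6 against 497 ± 46.1 in wild type (log2 -0.93 ± 0.19, limma adjusted p = 0.00448). Between the lines, 2 of the 16 were higher and 2 lower with TGFβ, where 11.7% of all tested genes passed. Without it, 3 were higher and 2 lower, where 31.8% passed. Leaving out certain single libraries lost the TGFβ calls of MIR503HG, MIR193BHG and MIR4435-2HG (limma adjusted p up to 0.173, 0.0848 and 0.0636). It also lost the untreated calls of MIR34AHG and MIR4435-2HG (up to 0.0750 and 0.0589). The untreated call of MIR137HG was not checked this way.

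**Figure D4:**
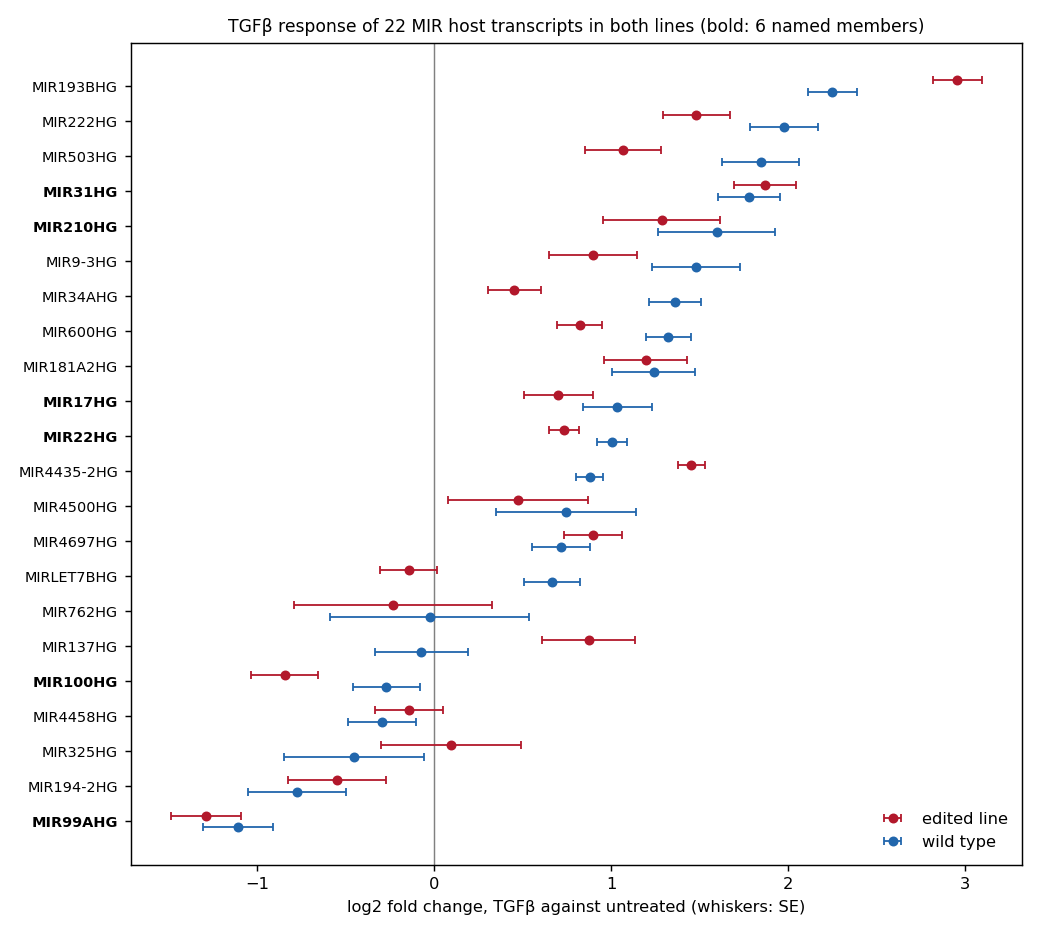
Log2 fold change with TGFβ (horizontal axis, whiskers SE) of 6 hosts in bold and 16 of the 17 other tested MIR hosts, in the edited line and in wild type. MIR2117HG is not drawn, because its untreated edited libraries were all at 0; the hosts in bold run from MIR31HG (1.87 and 1.78) to MIR99AHG (-1.29 and -1.11).

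Other genes with a microRNA in an intron or exon did not share a direction. Of 28 tested, 14 rose and 9 fell with TGFβ in the edited line, where 62.8% of all tested genes passed, and 12 rose and 11 fell in wild type, where 61.7% passed. Their median log2 fold changes were 0.17 and 0.11. SLIT3, a secreted guidance ligand with miR-218-2 in an intron, was at 7302 ± 384 in treated and 317 ± 49.7 in untreated edited cells, and at 7580 ± 272.8 in treated and 326 ± 16.4 in untreated wild type cells (log2 4.53 ± 0.09 and 4.54 ± 0.09). The imprinted H19, which carries miR-675 in an exon, was at 87.9 ± 27.8 in treated and 649.5 ± 32.3 in untreated edited cells, and at 65.1 ± 34.2 in treated and 2119.7 ± 275 in untreated wild type cells (-2.91 ± 0.27 and -5.11 ± 0.27). All 4 changes passed in limma, with adjusted p of at most 7.65e-08.

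The machinery that processes and uses microRNAs was mixed as well. Of 28 tested genes, 10 rose and 10 fell with TGFβ in the edited line, again against 62.8% of all tested genes, and 13 rose and 11 fell in wild type, against 61.7%. Their median log2 fold changes were 0.12 and 0.15. The Argonaute genes AGO1 (0.69 ± 0.06 in the edited line and 0.68 ± 0.06 in wild type) and AGO4 (0.69 ± 0.09 and 0.80 ± 0.09) rose, as did DICER1, which releases the mature duplex (0.47 ± 0.13 and 0.80 ± 0.13). LIN28B, which blocks let-7 maturation, fell by 1.27 ± 0.10 in the edited line and by 1.28 ± 0.10 in wild type. TNRC6C, a partner of Argonaute in silencing, fell by 1.01 ± 0.12 in the edited line and by 0.79 ± 0.12 in wild type. Each of these passed in both lines (limma adjusted p of at most 0.00470).

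Genes with the pattern most like each host were found by Pearson correlation of log2 values over the 12 libraries, among tested genes with a mean of at least 100. The 12 points share 4 groups, so r mostly follows the group means, and it is given as a description. For MIR22HG they were COL20A1, TUBB3 and LUCAT1 (r = 0.987, 0.986 and 0.986), and for MIR31HG B3GNT5, PANX1 and SPTLC2 (0.995, 0.993 and 0.993). For MIR99AHG they were APBA1, TARID and GBA2 (0.988, 0.982 and 0.981), and for MIR100HG WDR45, DMKN and GSTZ1 (0.961, 0.955 and 0.955). MIR17HG was closest to EGLN2, AP5Z1 and ST20 (0.967, 0.959 and 0.955), and MIR210HG to SGSH, HOXB-AS4 and ZMYND8 (0.938, 0.936 and 0.934). Among the hosts themselves, MIR22HG and MIR31HG had r = 0.933, MIR100HG and MIR99AHG had 0.767, and MIR22HG and MIR99AHG had -0.877.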

How the data were processed

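RNA-seq of 12 A549 libraries in 4 groups of 3 was analysed from a deposited table. The authors deposited normalized counts per gene, a signal value. The build GRCh38.p14 and the tools DESeq2, featureCounts, HISAT2 and StringTie are named per the submitters' processing notes; their versions, the strand setting and the annotation are not stated there. Dividing by a constant step per library gave whole reads for 100% of values (tolerance 0.01, largest deviation 0.000417), 84210775 to 111141708 per library. In replicate 1 of untreated wild type that step lay close to 1 (0.997). The table held 58830 entries, and 28 gene names had become dates and were kept but are not named.

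Genes that reached a normalized count of 10 in 3 or more libraries were put on the log2(value + 1) scale. The test was limma 3.58.1 (trend, R 4.3.3), in 1 fit of 4 group means, two-sided, with Benjamini-Hochberg adjustment over 20456 genes and a threshold of 0.05. The members and gene lists were chosen with earlier results of these data known. Named genes were the members, their hairpins and neighbours, up to 4 called genes each way per list by fold change with a mean of at least 100, and the 3 genes closest to each member by correlation. MIR34AHG and MIRLET7BHG come from the list of other MIR hosts. Alternatives were pseudocounts of 0.5 and 10, no filter and a filter of 50, TMM factors, equal totals, edgeR 4.0.16 and DESeq2 1.42.0 on the recovered reads, a replicate block, fits of only the groups compared, and leaving out each library. Positions came from GENCODE 29 and sequences from RefSeq.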

Additional observations from a re-analysis of the deposited data

Results flagged for a closer look

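The 6 genes that follow are neighbours of a host or other MIR hosts. They responded to TGFβ differently in the 2 lines by the test of the difference itself. That test took the response in the edited line minus that in wild type (log2, limma with Benjamini-Hochberg adjustment). It was passed by 16.6% of all tested genes and by none of the 6 tested hosts. Of the 16 neighbours left without IFNA1, 1 passed upward and 1 downward. Of the 16 other MIR hosts left without MIR2117HG, 2 passed upward and 2 downward. These counts are not read as a result about either list. MIR34AHG had -0.91 (adjusted p = 0.00748), at 679 ± 96.1 in treated and 496 ± 71.4 in untreated edited cells, and 885 ± 126 in treated and 345 ± 54.5 in untreated wild type cells. MIR4435-2HG had 0.57 (adjusted p = 0.00156), at 4695 ± 225 in treated and 1716 ± 140.3 in untreated edited cells, and 3796 ± 277.5 in treated and 2061 ± 91.8 in untreated wild type cells. MIR193BHG had 0.71 (adjusted p = 0.0216), with its values by library given above. WDR81, beside MIR22HG, had -0.57 (adjusted p = 0.00333). MIRLET7BHG had -0.81 (adjusted p = 0.0213), at 269 ± 23.0 in treated and 299.9 ± 49.9 in untreated edited cells, and 271 ± 49.4 in treated and 168 ± 6.78 in untreated wild type cells. USP25, beside MIR99AHG, had 0.28 (adjusted p = 0.0443). WDR81, MIR34AHG and MIR4435-2HG passed under every alternative run. MIR193BHG did not pass on leaving out replicate 3 of untreated wild type, replicate 3 of treated edited cells or replicate 2 of untreated edited cells (adjusted p = 0.0506, 0.0572 and 0.0509). MIRLET7BHG did not pass on leaving out replicate 1 of any group but treated wild type, or there replicate 2 (0.05003 to 0.0628). USP25 did not pass with no filter, TMM factors, equal totals or edgeR (0.0789, 0.0754, 0.122 and 0.0789), nor on leaving out any 1 library other than replicate 3 of treated wild type.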

How the results depend on the processing

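The TGFβ calls of the 6 tested hosts held in both lines under all alternatives, as did the higher MIR100HG of the untreated edited line. For the edited line against wild type with TGFβ, 2394 genes passed, against 1183 in a fit of only the groups compared and 1386 to 3841 on leaving out 1 library; 1 host, MIR17HG, passed, against 0 in the fit of only the groups compared and 0 to 1 on leaving out a library. For the difference in response, 0 to 1 hosts passed on leaving out a library, and the 1 was MIR22HG. Signs turned only for values that passed nowhere, on leaving out a library. The log2 fold change of MIR210HG, edited over wild type, then ran from -0.12 to 0.55 untreated and from -0.19 to 0.13 with TGFβ, against 0.29 and -0.02 with all libraries. Its difference in response ran from -0.57 to 0.10, against -0.31, and that of MIR31HG from -0.0527 to 0.22, against 0.09. The libraries whose absence turned a sign were, for MIR210HG, replicate 2 of both wild type groups, replicate 1 of untreated and replicate 3 of treated edited cells, and for MIR31HG, replicate 1 of treated wild type and replicate 3 of untreated edited cells. The TGFβ response of RPL13AP7 in wild type ran from -0.11 to 0.0262, turning without replicate 3 of treated cells, and that of LINC00410 in the edited line from -0.19 to 0.64, turning without replicate 2 of either group. The cause was not tested. Whether replicate numbers pair the samples was not settled. Of 18 same-numbered pairs, 1 had a correlation of deviations over 0.1 (range -0.031 to 0.129), and 8 of 12 libraries correlated best with their own number. With the replicate block, 5, 6, 1, 1 and 0 hosts passed in the 5 comparisons, as without it. Of all genes, 12920, 13096, 7068, 2987 and 3987 passed, against 12624, 12842, 6514, 2394 and 3395 without it. TMM factors and equal totals moved the median gene by at most 0.0706 on the log2 scale. At 0 to 3 reads per library, depth did not allow MIR155HG to be compared.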
